A study of Homo sapiens with 9 samples.

Results

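The peaks described here are 1129 ZNF143 binding peaks of CTCF-AID cells. They were chosen by presence in the list called after 24 h of auxin and absence from 2 others: each overlapped, by at least 1 bp, no ZNF143 peak of the same line at 0 h and no ZNF143 peak of wild-type cells. They made up 6.89% of the 16392 ZNF143 peaks of the 24 h library on chromosomes 1 to 22 and X, and are called 24 h-only peaks. All lines derive from HEC-1-B, a human uterine adenocarcinoma line. The 9 libraries were ChIP-nexus, a form of chromatin immunoprecipitation whose exonuclease digestion stops at the edge of the bound protein. Wild-type cells had libraries for ZNF143, CTCF and RAD21, and ZNF143KO cells for CTCF and RAD21. CTCF-AID cells, whose CTCF carries a degron that auxin activates, had libraries for ZNF143 and CTCF at 0 h and 24 h of auxin (IAA, given at 500 μM to cells that express TiR1). RAD21 libraries came from cells without auxin only. With 1 library in each group, nothing below could be tested against replicates, and every interval covers counting error over peaks only. The labels do not say whether a line is 1 clone, and CTCF protein is not measured by these files. Because the 3 ZNF143 lists chose these peaks, their strength, their distance to other ZNF143 peaks and their overlap with CTCF and RAD21 are descriptions.

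ZNF143 is a zinc-finger transcription factor best known from promoters of protein-coding and small RNA genes. CTCF, another zinc-finger protein, halts the cohesin ring at its sites and so sets the anchors of chromatin loops, and RAD21 is a subunit of that ring. ZNF143 is also found at many CTCF and cohesin sites, and the auxin libraries ask what happens to ZNF143 binding when CTCF is degraded. Positions are 1-based on hg19. Sequence and gene annotation of that build were not used here, so peaks are given by position.

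The other 24 h ZNF143 peaks fell into 3 classes. In 12886 cases they overlapped a ZNF143 peak both at 0 h and in wild type (common peaks), in 2178 a 0 h peak but no wild-type peak (degron-line peaks), and in 199 a wild-type peak but no 0 h peak. Read depth of the libraries is unknown. The background that occurred most often at peaks, solved from the deposited values, was 0.35 reads in the 24 h library, 0.42 at 0 h and 0.16 in wild type. Divided by the shortest peak width of each list (29, 31 and 27 bp), it was 12.1, 13.5 and 5.93 reads per kb. That step assumes that the shortest width is the length a read was counted over.

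The 24 h-only peaks were weak and short. Their median signal, the authors' ratio of reads at the summit over the local background, was 6.60 (quartiles 5.82 and 7.50), against 9.96 (7.43 and 15.6) in common peaks and 7.28 (6.31 and 8.47) in degron-line peaks. The strongest reached 11.9, and 4921 other peaks of the 24 h list were stronger. Only 75 of them (6.64%) were in the stronger 50% of the list, and none was among the strongest of 4 equal bands of the list, which began at 13.5. Solved from the deposited ratio and p-value, the median summit held 10 reads (quartiles 9 and 13) over a background of 0.641 reads, against 17 reads (11 and 34) over 0.647 reads in common peaks. The backgrounds were thus alike, and the difference lay in the summit reads. The highest solved count was 58 in the 24 h list, 62 at 0 h and 54 in wild type. In each list this was 2 times the shortest peak width. The 90th percentile was 56 reads in common peaks and 17 in 24 h-only peaks. Whether counts have a ceiling there was not tested, and with one the strength of common peaks would be understated. Median width was 37 bp in 24 h-only peaks, 48 bp in degron-line peaks, 81 bp in common peaks and 35 bp (32 to 38) in the 199 peaks shared with wild type alone. At the shortest length in the list, 29 bp, stood 25.2% of 24 h-only peaks (95% exact interval 22.7 to 27.9) and 5.43% of all other 24 h peaks (5.08 to 5.80).

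**Figure D1:**
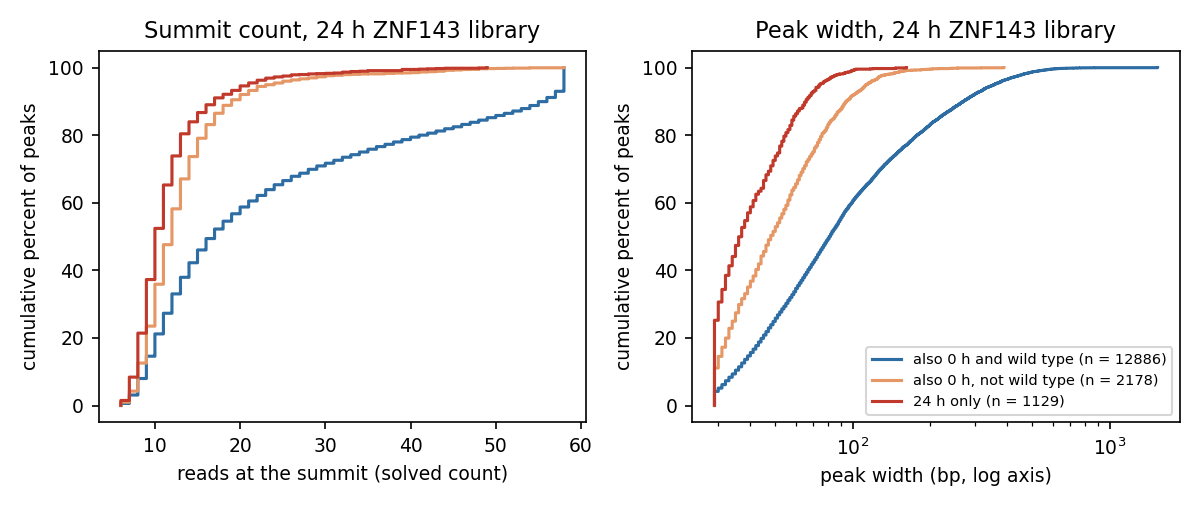
Cumulative percent of 24 h ZNF143 peaks (vertical axes) by reads at the summit (left) and by width in bp on a log axis (right), for 24 h-only, degron-line and common peaks. The curve of 24 h-only peaks rises first in both panels, with medians of 10 reads and 37 bp against 17 reads and 81 bp in common peaks.

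Many lay close to the calling threshold. A −log10 q under 5 was given to 21.7% of 24 h-only peaks (19.3 to 24.2) and to 5.65% of the others (5.29 to 6.03), and the lowest value among 24 h-only peaks was 3.01. At the most frequent background of 0.35 reads, the 78 24 h-only peaks had 6 to 13 summit reads, where 6 was also the lowest count called there in the 24 h list. Their median of 9 reads was also that of the 1232 other 24 h peaks at this background, and 41.0% of them were within 2 reads of the lowest count, against 33.0% of the others. In the 0 h list the lowest count called at its own most frequent background, 0.42 reads, was 6 as well.

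The strongest 24 h-only peak was chr9:24574652-24574690, with 16 reads over 0.429 and a signal of 11.9. Its nearest 0 h summit was 199771 bp away, and it touched no CTCF or RAD21 peak of any of the 6 lists. The next, chr11:34937955-34937999, had 17 reads, a signal of 11.7 and a 0 h summit 9844 bp away. The third, chr6:99395974-99396026, had a signal of 11.7 and a 0 h summit 102163 bp away. Both of these also lacked CTCF and RAD21 peaks. The fourth differed in its surroundings: chr22:20657850-20657883 (signal 11.5) overlapped the 0 h and knockout CTCF peaks and both RAD21 peaks, and a 0 h ZNF143 summit stood 632 bp away.

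Of the remaining 6 among the 10 strongest, those at chr10:78939113-78939167 (signal 11.3) and chr7:54148662-54148700 (signal 10.7) had 0 h summits 5325 and 373909 bp away. The other 4 had one within 1 kb. Their 0 h summits lay 234 bp from the peak at chr2:64068682-64068753 (signal 11.3) and 760 bp from chr11:111473595-111473676 (10.7). The distances were 225 bp at chr12:120105889-120105966 (10.5) and 501 bp at chr7:87506383-87506453 (10.4). Of these 6, the last alone overlapped a CTCF or RAD21 peak, that of wild-type RAD21. The strongest 24 h-only peaks thus held both remote peaks and peaks beside a 0 h site.

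The same mixture was seen over all 24 h-only peaks. The distance to the nearest 0 h ZNF143 summit had a median of 3371 bp (quartiles 310 and 24399), and the plot by distance had a peak between 100 and 500 bp and another between 10 and 100 kb. A 0 h summit lay within 1 kb of 461 peaks (40.8%, 37.9 to 43.8) and within 200 bp of 185 (16.4%). The share within 1 kb depends on the rule: it was 80.2% where a shared peak needed a reciprocal overlap of 50%, 8.60% where peaks within 500 bp of a 0 h or wild-type peak were removed too, and 29.3% in the stronger 50% of the list. In contrast, 443 had none within 10 kb, and 73 had none within 100 kb. Wild-type summits were farther off, with a median of 9146 bp and 327 peaks (29.0%) within 1 kb of one. Signal hardly separated near from remote peaks: the median was 6.40 (quartiles 5.54 and 7.38) within 1 kb of a 0 h summit and 6.66 (5.99 and 7.49) beyond 10 kb.

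**Figure D2:**
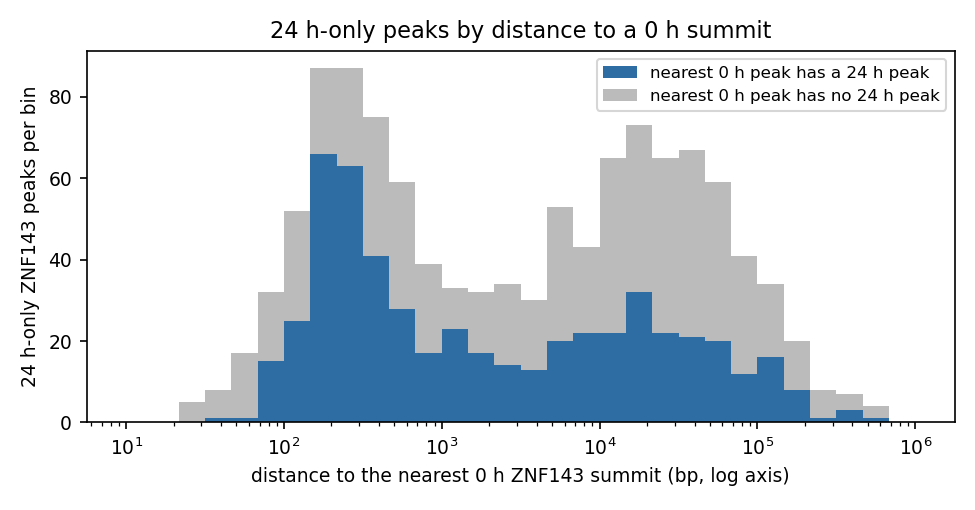
Number of 24 h-only ZNF143 peaks per bin (vertical axis) by distance in bp to the nearest 0 h ZNF143 summit (log axis), with bars split by whether that 0 h peak overlaps a 24 h ZNF143 peak. There is a mode between 100 and 500 bp, where most neighbours have a 24 h peak, and another beyond 10 kb, where fewer do.

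The 0 h peaks beside them were of 2 kinds. For 257 of the 461 peaks within 1 kb (55.7%, 51.1 to 60.3) the nearest 0 h peak still overlapped a 24 h peak, so the 24 h-only peak lay next to a retained site. Of all 0 h ZNF143 peaks, 43.2% overlapped a 24 h peak. The whole 0 h list, retained or not, had a median signal of 10.3, and these 257 retained neighbours had a median 0 h signal of 10.8. In the 24 h list their own median signal was 9.55 against 6.22 for the 24 h-only peaks beside them, which were the weaker of the pair in 217 cases (84.4%). For the other 204 the nearest 0 h peak had no 24 h peak, and those 0 h peaks were weak, with a median of 6.64.

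The balance changed with distance. Among the 63 peaks within 100 bp of a 0 h summit 27.0% (16.6 to 39.7) of the 0 h neighbours had a 24 h peak. The rule limits this share, because a 24 h-only peak overlaps no 0 h peak and a retained neighbour needs a second 24 h peak. No other 24 h summit was nearer than 72 bp to a 24 h-only peak, and 28 had one within 100 bp. Between 201 and 500 bp the share of neighbours with a 24 h peak was 65.2% (57.9 to 72.0) of 187, and between 10 and 100 kb 34.9% (30.0 to 40.0) of 370. The neighbour was at a 0 h CTCF peak in 31.0% of the 461 cases within 1 kb and in 62.1% of the 443 beyond 10 kb. Over the whole 0 h list it was 56.1%.

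The overlap rule divides these peaks sharply from others that nearly meet it. A peak at chr6:126307577-126307614 (signal 7.94) abutted a wild-type peak, and one at chr14:81685805-81685846 (5.39) abutted a 0 h peak. The third, at chr14:23236469-23236499 (7.68), was 1 bp from a 0 h peak. Just outside the rule, with an overlap of 1 bp, were peaks at chr2:198318106-198318135 (7.42), chr19:47747405-47747513 (7.07) and chr17:62032883-62032911 (6.26).

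Overlap with CTCF and cohesin came from libraries that the choice of peaks did not use, but it is not independent of that choice. The rule removed peaks at 0 h and wild-type ZNF143 sites, many of them CTCF sites. Of 0 h ZNF143 peaks, 56.1% overlapped a 0 h CTCF peak. The direction of the differences below can thus come from the rule, and they are descriptions. Of the 24 h-only peaks, 126 (11.2%, 9.38 to 13.1) overlapped a CTCF peak of any of the 4 CTCF lists, against 42.2% of all 24 h ZNF143 peaks. A RAD21 peak of either list was overlapped by 139 (12.3%, 10.5 to 14.4), against 47.0% of all. Most, 943 (83.5%, 81.2 to 85.6), overlapped neither, against 50.7% of all. The difference from the other 24 h peaks was -33.3 percentage points for CTCF (Newcombe 95% interval -35.2 to -31.2) and -37.2 points for RAD21 (-39.2 to -35.0). The rule mattered here: where a 24 h peak counted as shared only with a reciprocal overlap of 50%, 21.97% of the list were 24 h-only, 43.4% of those overlapped CTCF, and the difference for CTCF was lost, at 1.54 points (-0.286 to 3.37). Among peaks in the stronger 50% of the list, which hold 75 of the 24 h-only peaks, it was -7.77 points, with an interval that includes 0 (-16.3 to 3.16).

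List by list the picture was the same. The 0 h CTCF peaks were overlapped by 66 (5.85%, against 38.4% of all 24 h ZNF143 peaks), wild-type CTCF by 70 (6.20%, against 39.4%) and knockout CTCF by 58 (5.14%, against 39.3%). The 24 h CTCF list, of the cells in which the peaks were found, was overlapped by 9 (0.797%, 0.365 to 1.51), against 32.2%. For RAD21 the numbers were 66 in wild type (5.85%, against 41.2%) and 115 in the knockout (10.2%, against 44.5%).

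**Figure D3:**
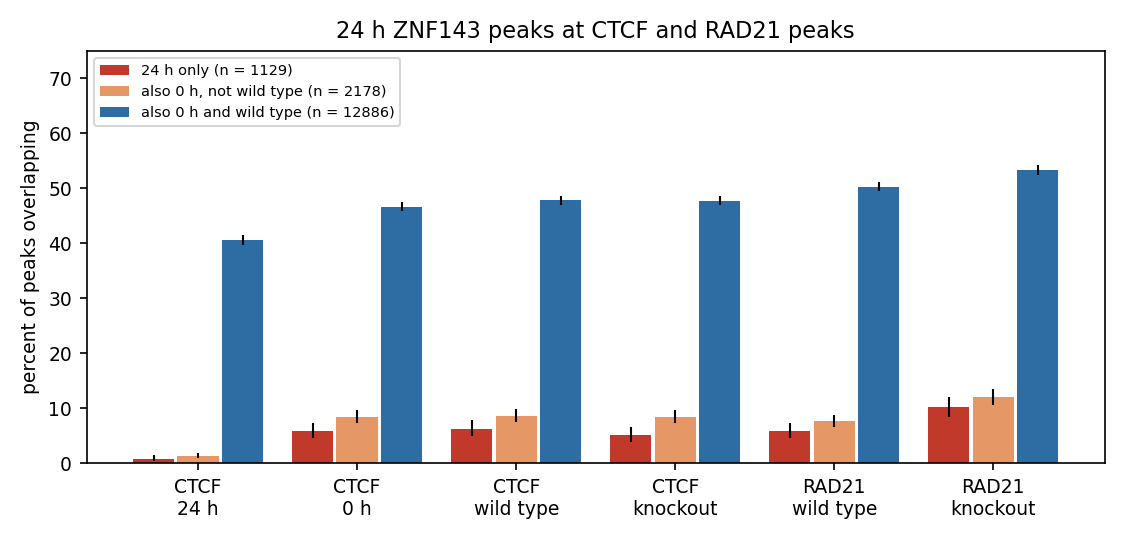
Percent of 24 h ZNF143 peaks (vertical axis, bars with exact 95% intervals) that overlap a peak of each of 4 CTCF and 2 RAD21 lists, for 24 h-only, degron-line and common peaks. Bars of 24 h-only peaks range from 0.797% to 10.2% and those of common peaks from 40.6% to 53.3%, with degron-line peaks close to the former.

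Common peaks and degron-line peaks differed in this respect far more than degron-line peaks and 24 h-only peaks did. Any CTCF list was overlapped by 49.8% (49.0 to 50.7) of common peaks and 13.8% (12.4 to 15.3) of degron-line peaks. The 24 h-only peaks differed from the latter by -2.66 points (-4.94 to -0.251) for CTCF and by -1.83 points (-4.18 to 0.649) for RAD21, an interval that includes 0. The 199 peaks shared with wild type alone stood between, with CTCF at 34.2% (27.6 to 41.2). Low overlap with CTCF was thus found in 24 h peaks missing from the wild-type list, whether or not they were seen at 0 h.

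At matched signal the difference from common peaks remained. In the weakest of the 4 bands of the 24 h list (signals of 2.03 to 7.01), 9.46% (7.39 to 11.9) of 698 24 h-only peaks overlapped a CTCF list, against 78.7% (77.0 to 80.3) of 2377 common peaks and 14.9% (12.7 to 17.4) of 925 degron-line peaks. In the next band, up to 8.88, it was 11.5% (8.39 to 15.3) of 356, against 69.0% and 10.9%. In the third, up to 13.5, it was 25.3% (16.0 to 36.7) of 75, against 50.3% (48.7 to 52.0) and 16.8% (13.3 to 20.8). Among common peaks the weakest overlapped CTCF most often, and among 24 h-only peaks the strongest did, with a wide interval. RAD21 followed the same order, from 10.03% to 22.7% in 24 h-only peaks and from 78.1% to 55.7% in common peaks.

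**Figure D4:**
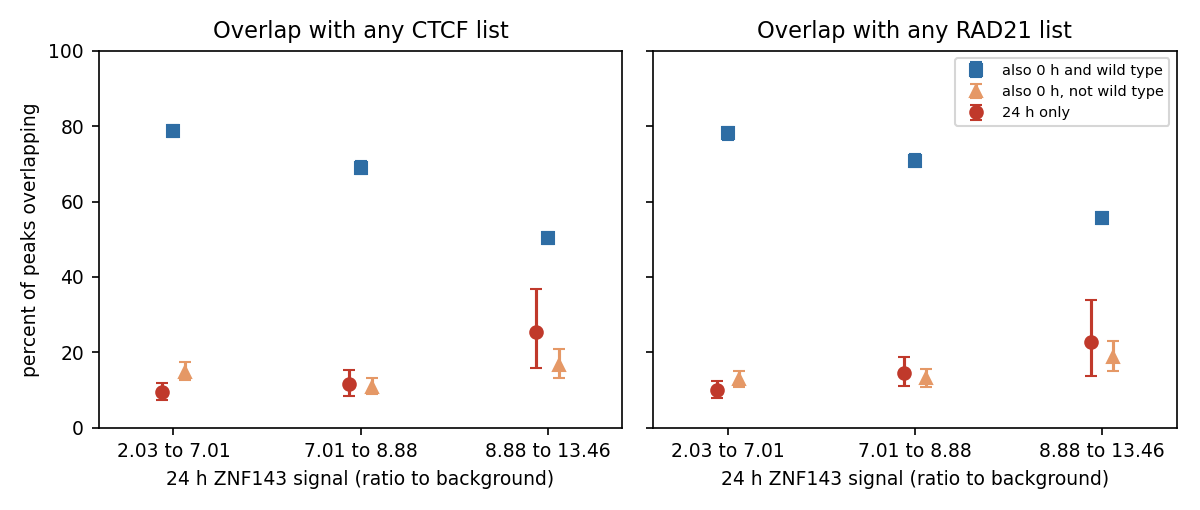
Percent of 24 h ZNF143 peaks that overlap any CTCF list (left) or any RAD21 list (right), in the 3 lower bands of 24 h ZNF143 signal (horizontal axis, ratio to background), with exact 95% intervals. Common peaks fall from 78.7% to 50.3% for CTCF and stay above 24 h-only peaks, which go from 9.46% to 25.3%, in each band.

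Where 24 h-only peaks did meet CTCF, they met its weaker peaks, as did degron-line peaks. The CTCF peak nearest to the 66 at 0 h CTCF sites had a median signal of 6.46, at percentile 8.19 of that list, and a median width of 53.5 bp. For other 24 h ZNF143 peaks at 0 h CTCF sites it was 22.5, at percentile 79.4, and 229 bp, but by class the median CTCF signal was 22.7 under common peaks, 7.04 under degron-line peaks and 7.51 under those shared with wild type alone. Their summits lay a median of 8 bp (quartiles 4 and 17.3) from the 0 h CTCF summit, against 12 bp (5 and 24) for other 24 h peaks, distances that the overlap of such short peaks limits. Few sites were seen in every library. Of the 186 24 h-only peaks at CTCF or RAD21, 80 (43.0%, 35.8 to 50.5) overlapped 1 of the 6 lists and 2 (1.08%) overlapped all 6. Of the other 24 h peaks at CTCF or RAD21, 11.8% overlapped 1 list and 64.4% all 6. Together, 79 overlapped both CTCF and RAD21, 60 RAD21 without CTCF and 47 CTCF without RAD21.

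The CTCF peaks under 24 h-only ZNF143 peaks were mostly missing from the 24 h CTCF list. A 24 h CTCF peak was present at 5 of the 66 peaks with a 0 h CTCF peak (7.58%, 2.51 to 16.8). The same held for 83.6% (82.7 to 84.5) of the 6233 remaining 24 h ZNF143 peaks at 0 h CTCF sites, most of them common peaks. In degron-line peaks it was 24 of 184 (13.0%, 8.54 to 18.8) and in peaks shared with wild type alone 6 of 36 (16.7%, 6.37 to 32.8), with intervals that overlap that of 24 h-only peaks. Of all 0 h CTCF peaks, 44.4% were found again. The weaker 50% of the 0 h CTCF list held 62 of the 66, of which 5 (8.06%, 2.67 to 17.8) had a 24 h CTCF peak. In that weaker 50%, 11.7% (11.2 to 12.2) of all 0 h CTCF peaks and 52.2% (49.7 to 54.7) of those under other 24 h ZNF143 peaks did. The CTCF list was 13865 peaks long at 24 h and 30374 at 0 h, and the part of list length in these shares was not tested.

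The positions of the CTCF-overlapping peaks were uneven along chromosomes. In each chromosome the widest stretch without a peak in any of the 9 lists was located; it was 3.0 to 21.1 Mb long. In hg19 such stretches hold the unsequenced centromeres, heterochromatin or short arms, and repeated satellite sequence is common at their edges. This measure was chosen after the data had been seen. Of the 126 24 h-only peaks at CTCF, 77 (61.1%, 52.0 to 69.7) lay within 5 Mb of that stretch, as did 8 of the 9 at a 24 h CTCF peak. Among degron-line peaks the shares were 174 of 301 at CTCF (57.8%, 52.0 to 63.5) and 18 of 29 at a 24 h CTCF peak (62.1%, 42.3 to 79.3). It was 20.2% (19.2 to 21.2) of the common peaks at CTCF, 17.6% (16.6 to 18.6) of those at a 24 h CTCF peak and 10.5% (8.61 to 12.6) of the 24 h-only peaks at neither partner. Of all 24 h-only peaks, 16.9% (14.8 to 19.2) lay this near, against 13.5% (13.0 to 14.1) of the other 24 h peaks. The local background was higher there. In the 77 peaks its median was 2.02 reads, against 0.679 in the 49 at CTCF elsewhere and 0.618 in 24 h-only peaks at neither partner elsewhere. What part local background has in these calls was not tested. Away from these stretches, 49 of 938 24 h-only peaks (5.22%, 3.89 to 6.85) overlapped a CTCF list, against 45.8% (44.9 to 46.7) of common and 6.82% (5.71 to 8.06) of degron-line peaks, and 1 overlapped a 24 h CTCF peak.

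**Figure D5:**
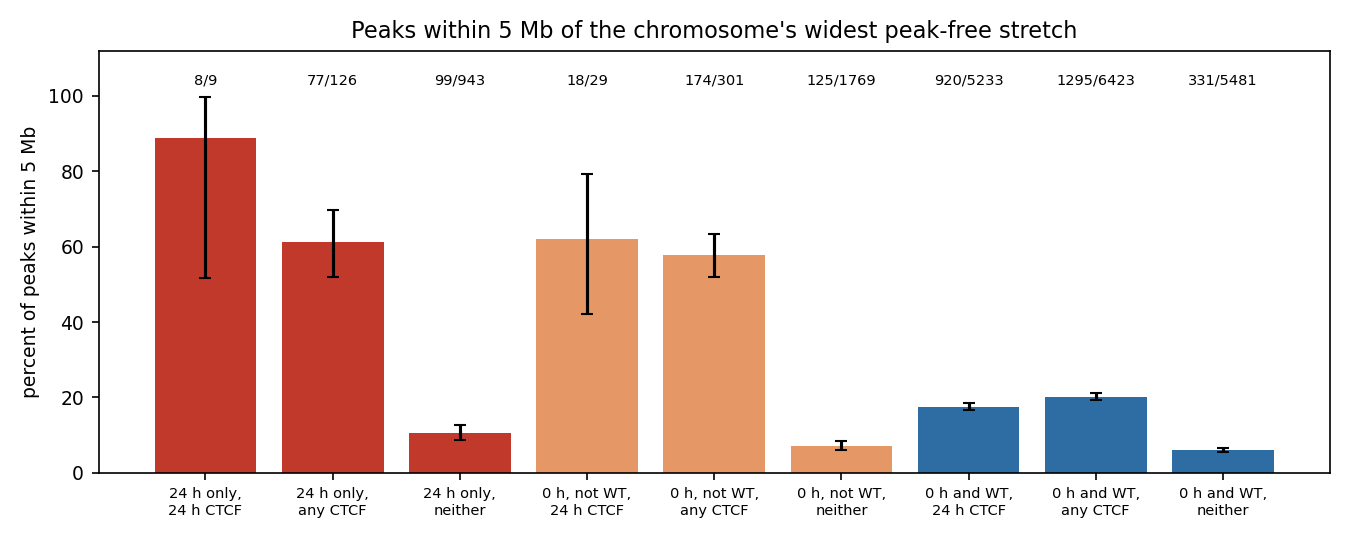
Percent of peaks (vertical axis, bars with exact 95% intervals, counts above) within 5 Mb of the widest stretch of their chromosome that has no peak in any list, by class of 24 h ZNF143 peak and by partner (WT is wild type). At any CTCF peak the share is 61.1% in 24 h-only and 57.8% in degron-line peaks, against 20.2% in common peaks, and at neither partner it is 10.5%, 7.07% and 6.04%.

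The strongest 24 h-only peaks at a 24 h CTCF peak were chr6:62284058-62284092 (signal 9.56, 12 reads) and chr7:62255259-62255289 (9.48, 12 reads). The third was at chr16:34990430-34990458 (8.88, 11 reads). The first overlapped all 6 lists, the second 5 and the third 4, and their nearest 0 h ZNF143 summits were 15197, 73725 and 140980 bp away. All 3 lay within 5 Mb of their chromosome's widest peak-free stretch.

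Most 24 h-only peaks had no other 24 h-only peak close by, but they lay near other 24 h peaks more often than the list did. Another 24 h-only peak was within 1 kb, edge to edge, of 85 (7.53%, 6.06 to 9.23). Some other 24 h ZNF143 peak of any class was within 1 kb of 352 (31.2%, 28.5 to 34.0), against 19.6% of all 24 h peaks. Within 10 kb it was 44.7% (41.8 to 47.7), against 36.0% of all. Chaining 24 h-only peaks alone by gaps of at most 10 kb left 987 single peaks, 52 pairs and 11 larger groups.

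The largest group held 5 peaks over 3826 bp, at chr1:565756-569581. Their signals were 3.88 to 4.70 over a high background of 4.11 to 4.16 reads, and all 5 overlapped CTCF. The wild-type CTCF list had 13 peaks in this span, the 0 h ZNF143 list 2 and the wild-type ZNF143 list none. This part of hg19 carries a nuclear copy of mitochondrial sequence, and what part that has in the group was not tested. Whether the other groups lie in such sequence was not examined. The next group, 4 peaks within 519 bp at chr3:96336143-96336661, had signals of 7.49 to 8.72 over a background of 0.603 to 0.606 reads. All 4 overlapped both CTCF and RAD21. CTCF lists had 5 peaks in that span in the knockout, 4 in wild type, 3 at 0 h and 1 at 24 h, and RAD21 lists 4 in the knockout and 1 in wild type, while the 0 h and wild-type ZNF143 lists had none. Of the other 2 groups of 4, that of higher summed signal, at chrX:61726581-61743995, shared its 17415 bp with 12 ZNF143 peaks at 0 h and 4 in wild type. Its signals were 6.19 to 9.03, over backgrounds of 1.22 to 4.49. The remaining group of 4, at chr7:57546554-57556100, had signals of 4.60 to 7.38.

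The same rule was applied to each ZNF143 list in turn, after the 24 h result was known, to see how peaks seen in a single list compare. At 0 h, 5956 of 34531 peaks (17.2%, 16.9 to 17.7) were in no other ZNF143 list, and in wild type 9678 of 36770 (26.3%, 25.9 to 26.8). The 24 h share of 6.89% was the smallest of the 3, and the 24 h list was also the shortest. Peaks of a single list were weak in each, with median signals of 6.60 at 24 h, 6.81 at 0 h and 7.42 in wild type, but their partners differed. Any CTCF list was overlapped by 11.2% of those of 24 h, 18.1% (17.1 to 19.1) of those of 0 h and 85.4% (84.7 to 86.1) of those of wild type. Among the remaining peaks of each list, seen in another ZNF143 list too, it was 44.5%, 67.2% and 70.2%. For RAD21 the shares of single-list peaks were 12.3%, 18.2% (17.2 to 19.2) and 84.3% (83.6 to 85.0). Those of the remaining peaks were 49.5%, 69.8% and 72.8%. Low overlap with CTCF and cohesin in single-list peaks was therefore seen in both CTCF-AID libraries, before auxin as well as after, and not in the wild-type library. The cell line and the library cannot be told apart here.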

How the data were processed

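The authors deposited 1 narrow-peak list per sample. Per the submitters' processing notes, cutadapt 2.10, Bowtie2 2.3.5.1, SAMtools 1.12, MACS2 2.2.7.1 and deepTools were used with GRCh37/hg19; settings, filters and pooling are not given in the sources used here. The deposited signal is a ratio (fold enrichment), read in the MACS2 form with 1 added to summit reads and background. The deposited lists also give −log10 p and −log10 q values, and a score, the authors' −log10 q times 10. The lowest −log10 q was 5.00 in the knockout lists and 3.00 to 3.02 in the others, and lists held 13865 to 63420 peaks. Read depth is not stated. Summit reads and background were solved from the ratio and −log10 p under a Poisson model; 100% of values of the 3 ZNF143 lists came out whole within 0.002 in −log10 p.

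Groups follow the sample titles. Peaks overlap if they share 1 bp or more. Exact 95% intervals of shares are Clopper-Pearson and those of differences Newcombe; with 1 library a group no test between conditions was possible. Named peaks are the 10 of highest signal, the 3 highest at a 24 h CTCF peak and the 3 highest at neither partner, the 3 largest groups (ties by summed signal), and the 3 nearest to the overlap rule on either side. Planned sequence and gene descriptions were not made. The peaks and measures were chosen with earlier results of these data known. Computation used scipy 1.17.1, pandas 2.3.3 and numpy 2.4.6 in Python 3.11.15, and plots matplotlib 3.10.9; on simulated or enumerated data 0 of 202 overlap calls and 0 of 2000 summit counts were wrong.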

Additional observations from a re-analysis of the deposited data

Results flagged for a closer look

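On sequences outside chromosomes 1 to 22 and X, which the report does not use, the 24 h ZNF143 library had 433 peaks, of which 50 overlapped no ZNF143 peak of 0 h or wild type. That is above the 3 that a count of 0 allows, a limit that does not say how many to expect here. As a share it was 11.5%, against 6.89% on chromosomes 1 to 22 and X. Chromosome Y held 15 of the 50, of 189 peaks, and the mitochondrial, unplaced and unlocalized sequences 35, of 244.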

How the results depend on the processing

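Settings were changed one at a time for 12 results, which gave 68 values: 31 inside the 95% interval of the reported value, 36 outside it and 1 of opposite sign; the cause was not tested. Where a reciprocal overlap of 50% was needed to count a peak as shared, far more peaks were 24 h-only by construction, at 21.97% of the list. Of these 43.4% overlapped CTCF, 34.4% 24 h CTCF, 44.1% RAD21 and 53.4% neither, 80.2% had a 0 h summit within 1 kb, and the difference from the other peaks in CTCF overlap was lost, at 1.54 points (-0.286 to 3.37; reported value -33.3). Removing peaks within 500 bp of a 0 h or wild-type peak left 4.33% as 24 h-only, with CTCF at 8.60%, another within 1 kb at 5.08% and a 0 h summit within 1 kb at 8.60%. With the 0 h list alone it was 8.10%, with CTCF at 14.6%, 24 h CTCF at 1.66%, RAD21 at 15.4%, neither at 80.4% and a difference of -30.03 points. At a −log10 q of at least 5 it was 5.78%, with neither at 81.2%, a difference of -30.6 points and a median signal of 6.97. In the stronger 50% it was 0.915%, with CTCF at 25.3%, 24 h CTCF at 4.0%, RAD21 at 22.7%, neither at 66.7%, another within 1 kb at 2.67%, a 0 h summit within 1 kb at 29.3% and a difference of -7.77 points, whose interval includes 0 (-16.3 to 3.16). Gaps of 10 kb gave 12.6%, a 0 h summit within 200 bp 16.4%, and summits within 50 bp of the partner a difference of -30.95 points. The alternatives chosen after seeing the data were the partner lists at a −log10 q of at least 5, which moved none of the 5 results run, and leaving out peaks within 5 Mb of the widest peak-free stretch. The latter gave CTCF 5.22%, 24 h CTCF 0.107%, RAD21 7.68%, neither 89.98% and a median background of 0.621. Of 16 named single peaks (the 10 strongest, 3 at a 24 h CTCF peak and 3 nearest to the overlap rule), 16 stayed 24 h-only with the reciprocal overlap and with the 0 h list alone, 15 at a −log10 q of at least 5, 13 in the stronger 50% and 10 when peaks within 500 bp were removed. The groups were not rerun. No paired analysis was possible because each group had 1 library with no replicate number. Summits of about 10 reads limit what a missing 0 h call shows.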

Other observations

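By chromosome, 24 h-only peaks made up between 4.06% (2.59 to 6.04, 23 of 566) of the 24 h ZNF143 peaks on chromosome 20 and 9.24% (7.46 to 11.3, 87 of 942) on chromosome 7. Chromosome 19 had 4.94% (3.80 to 6.29) of 1236. On chromosome 7, 28 of the 87 were within 5 Mb of the widest peak-free stretch, where they were 16.5% (11.2 to 22.9) of 170 peaks, and elsewhere 24 h-only peaks were 7.64% (5.87 to 9.75) of 772. Over all chromosomes the shares were 8.47% (7.35 to 9.70) near these stretches and 6.64% (6.23 to 7.06) elsewhere.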
